A study of Mus musculus with 24 samples.

Results

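The genes described here are 8 genes of Schwann cells and the myelin they make: Mbp, Pmp22, Prx, Ncmap, S100b, Sox10, Cdh19 and Gldn. They were chosen by name and make up 8 of the 27180 rows of the deposited count tables. They were followed across mouse skin that expresses the E7 oncoprotein of human papillomavirus 16 from the keratin 14 promoter, which is active in basal keratinocytes. Intact ear skin came from 8-week-old mice labelled C57BL/6, either control (called C57) or K14E7 (called E7). Grafted ear skin came from donors labelled C57BL/6 (C57), K14E7 (E7) or CD1d-/-xK14E7 (CD1dKOxE7). CD1d presents lipids to natural killer T cells. All grafts were placed on C57BL/6 recipients and collected 14 or 28 days after grafting (14 and 28 dpg, reading the label's dpg in that way). Each of the 8 groups had 3 libraries, 24 in all, from whole tissue. The labels do not say how many mice stood behind a library, so the p-values measure the spread between these libraries. In whole tissue, fewer cells of a type and less RNA per cell cannot be told apart.

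Schwann cells wrap the axons of peripheral nerves, and those on large axons build myelin, a many-layered sheath of their own membrane. When an axon is cut its distal end degenerates, the Schwann cells around it lower their myelin genes and take on a repair state, and they make myelin again when an axon regrows. Skin cut out and grafted is severed from its nerves, and the levels of these genes at 14 and 28 dpg are set beside intact ear here. Loss and regrowth of nerve fibres in the grafts were not measured.

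The members include genes of the finished sheath and genes of the Schwann cell whatever its state. The promoters of 2 sheath genes, Prx and Ncmap, are shown because they held a motif known from myelin genes. Egr2 is the zinc finger factor that turns on myelin genes with Sox10. The letters GTGGGNG, read on both strands as an EGR-type motif, were found in the windows of Prx and of Ncmap among the 5 members with a window in the RefSeq promoter table (build GRCm38.p6), and in 31.6% of all 32851 windows of 300 bases. These 5 members have 9 windows, 4 of Pmp22, 2 of Ncmap and 1 each of Prx, S100b and Gldn, and 2 of the 9 held the motif; the second window of Ncmap did not. The letters ACAAAG, a core of SOX binding sites, were in none of the members' windows and in 18.7% of all windows, and TATAAA was in none and in 13.6%. The 250 bases before each start site are printed 5′ to 3′ on the gene's strand, with the EGR-type match in capitals. It begins at -107 from the start in Prx, where it is read on the opposite strand, and at -175 in Ncmap. The Prx bases lie at chr7:27499074-27499323 on the plus strand and the Ncmap bases at chr4:135398228-135398477 on the minus strand.
Prx: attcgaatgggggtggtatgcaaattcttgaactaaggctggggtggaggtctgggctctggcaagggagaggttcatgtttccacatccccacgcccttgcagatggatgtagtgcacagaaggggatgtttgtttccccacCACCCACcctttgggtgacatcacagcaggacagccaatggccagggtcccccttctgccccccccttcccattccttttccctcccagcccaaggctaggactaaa
Ncmap: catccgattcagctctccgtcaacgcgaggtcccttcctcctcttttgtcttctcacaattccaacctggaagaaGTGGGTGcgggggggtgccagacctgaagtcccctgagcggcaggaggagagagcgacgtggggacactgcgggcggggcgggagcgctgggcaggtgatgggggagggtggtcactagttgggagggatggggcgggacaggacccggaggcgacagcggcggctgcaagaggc
A match is a run of letters and no evidence of binding.

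The libraries held 6550011 to 13814448 counts, and levels are given as CPM, each library's counts scaled to one common total after correction for composition. Reads of the E7 transgene numbered at most 2 in any C57 library and at least 141 in every E7 or CD1dKOxE7 library. As a check of the tissue, the summed level of 10 keratinocyte genes ran from 26500 to 96500 CPM, and none of the 10 was at 0 in any group. Cd1d1 was at 11.4 to 17.3 CPM in the 14 dpg grafts labelled CD1dKOxE7 and at 14.3 to 16.8 CPM in E7 grafts of that day. The recipients carry Cd1d1 and the deleted part of the gene is not given, so this level checks the label in neither direction. CD1dKOxE7 28 dpg replicate 3 stood apart from replicates 1 and 2, with E7 at 18.8 CPM against 44.1 and 44.4, Cd1d1 at 14.7 against 5.34 and 4.44, and Ngfr at 69.0 against 11.5 and 11.6. Results on that group are given with and without it. Ear and graft libraries were run on different flow cells, so tissue and flow cell cannot be told apart. CD1dKOxE7 grafts were on another lane of the flow cell of the other grafts, so that donor and lane cannot be told apart, whereas C57 and E7 skin always shared a lane.

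In C57 ear Pmp22 and Mbp, genes of compact myelin, had the highest CPM of the 8, while per length S100b came second, ahead of Mbp. Pmp22 encodes a membrane protein of compact myelin whose copy number decides an inherited neuropathy (Entrez 18858, chr11:63128982-63159547, plus strand, GRCm38). It stood at 298, 294 and 309 CPM in C57 ear, and per length it was the highest member, at 127.6 CPM per kb of exon. Mbp encodes the basic protein that holds the inner faces of the myelin membrane together (Entrez 17196). It was at 197, 196 and 222 CPM, or 24.2 CPM per kb. S100b, a calcium-binding protein of Schwann cells that chondrocytes and adipocytes also make, reached 72.0, 61.5 and 80.8 CPM, or 48.1 CPM per kb. The remaining members were lower per length: Prx at 12.3, Ncmap at 9.59, Sox10 at 5.61, Gldn at 4.11 and Cdh19 at 3.13 CPM per kb.

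**Figure D1:**
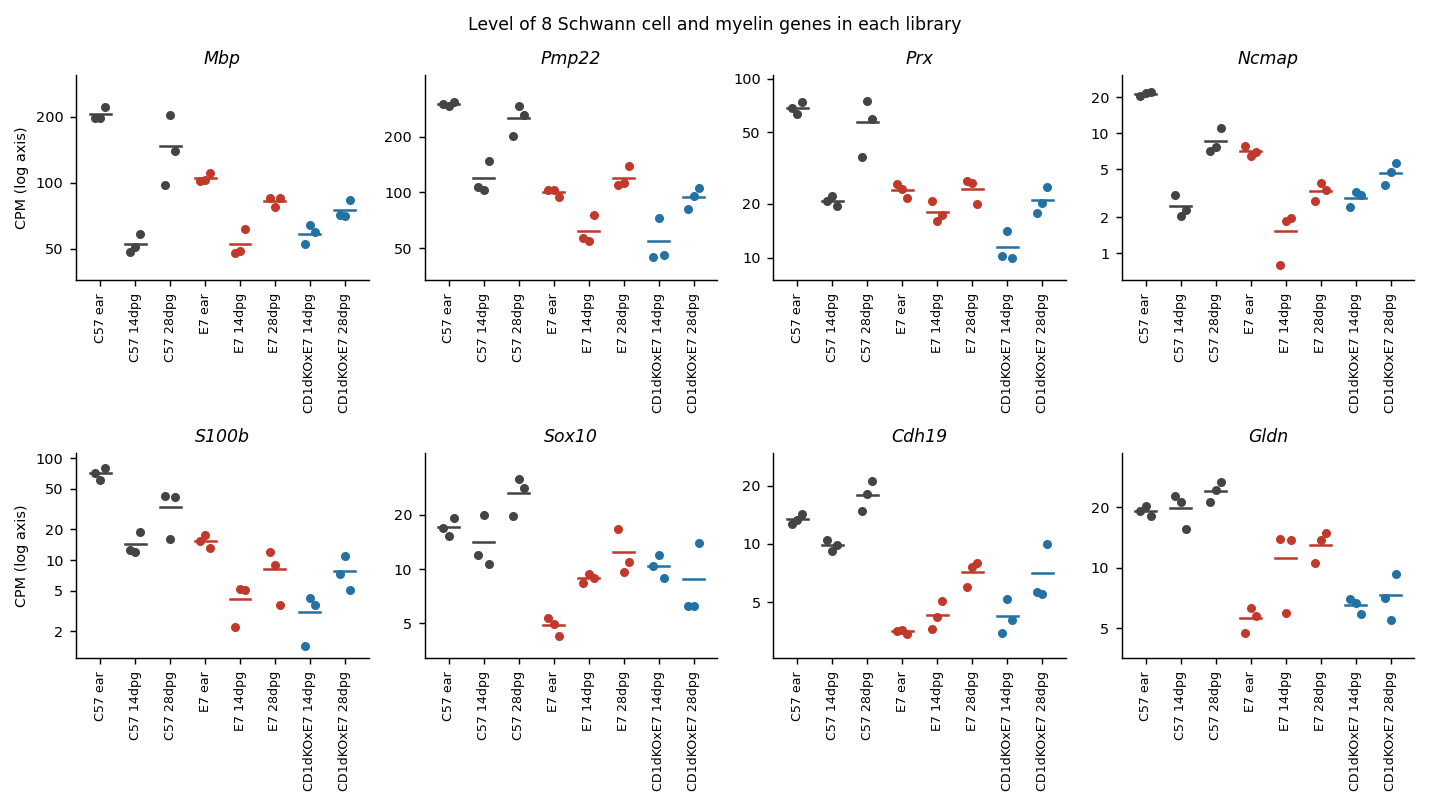
Level of each member in every library, in CPM on log axes, for the 8 groups. Points are libraries and short lines are group means. Mbp, Pmp22, Prx, Ncmap and S100b are far below C57 ear in all C57 grafts at 14 dpg, while Sox10, Cdh19 and Gldn lie closer to it.

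At 14 dpg 5 members, among them all 4 genes of the sheath itself, stood far below C57 ear in C57 grafts, whereas Sox10, Cdh19 and Gldn did not pass the test. Ncmap, S100b, Mbp, Prx and Pmp22 fell, where 22% of all 16612 genes tested fell. Ncmap encodes a small membrane protein of non-compact myelin (Entrez 230822, chr4:135369576-135398227, minus strand). It read 20.5, 21.5 and 22.0 CPM in ear and 3.03, 2.04 and 2.27 CPM at 14 dpg. Ear and graft libraries lay far apart, and the log2 fold change was -3.11 ± 0.22 (SE, n = 3 against 3, edgeR quasi-likelihood test, adjusted p = 2.3e-09). Mbp read 48.4, 51.0 and 58.1 CPM at 14 dpg, about 25.6% of its ear mean (log2 fold change -1.97 ± 0.18, edgeR adjusted p = 5.22e-08). Prx encodes periaxin, which ties the outer Schwann cell membrane to the basal lamina through Drp2 (Entrez 19153, chr7:27499324-27520214, plus strand). It read 68.4, 63.7 and 74.1 CPM in ear and 20.6, 22.2 and 19.5 CPM at 14 dpg (-1.73 ± 0.20, edgeR adjusted p = 7.49e-07). Of the exonic bases of Prx, 300 overlap Gm15541 on the other strand, and the strand of the reads is not given in the sources used here. Pmp22 read 107, 103 and 148 CPM (-1.33 ± 0.19, edgeR adjusted p = 8.24e-06), and S100b 12.5, 12.1 and 18.7 CPM (-2.30 ± 0.38, edgeR adjusted p = 6.97e-05).

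Sox10 is the transcription factor that Schwann cells need at every stage and that melanocytes share (Entrez 20665). It read 16.9, 15.2 and 19.3 CPM in C57 ear and 12.0, 20.0 and 10.6 CPM at 14 dpg. The groups overlapped, and the change of -0.28 ± 0.27 on the log2 scale did not pass the test (edgeR adjusted p = 0.4). Cdh19, a cadherin of the Schwann cell lineage (Entrez 227485), went from 12.6, 13.3 and 14.3 CPM to 10.5, 9.20 and 9.91 CPM, which also missed the threshold (-0.44 ± 0.19, edgeR adjusted p = 0.0565). Gldn encodes gliomedin, which myelinating Schwann cells release to gather sodium channels at nodes (Entrez 235379). Its levels were 19.2, 20.2 and 18.0 CPM in ear and 22.9, 21.3 and 15.5 CPM at 14 dpg, and they overlapped (0.05 ± 0.22, edgeR adjusted p = 0.855). The sign of that small Gldn difference turned under other scalings, to -0.02 with upper quartile normalization.

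By 28 dpg 6 of the 8 members had risen in C57 grafts, where 8.4% of 16189 genes rose between these days. Ncmap rose from its 14 dpg levels to 7.07, 7.70 and 11.0 CPM (log2 fold change 1.805 ± 0.27, n = 3 against 3, edgeR adjusted p = 0.000369). Mbp reached 97.9, 203 and 139 CPM (1.49 ± 0.20, edgeR adjusted p = 0.000175) and Prx 36.4, 75.3 and 59.5 CPM (1.46 ± 0.22, edgeR adjusted p = 0.000444). Replicate 2 was the highest library for Mbp, Prx and Pmp22 and replicate 1 the lowest, and for these 3 genes every 28 dpg library lay above every 14 dpg library. Pmp22 rose by 1.09 ± 0.21 to 200, 294 and 262 CPM (edgeR adjusted p = 0.0021), and Cdh19 by 0.87 ± 0.21 to 14.7, 18.2 and 21.1 CPM (edgeR adjusted p = 0.00849). Sox10 rose to 19.8, 31.5 and 28.1 CPM (0.91 ± 0.30, edgeR adjusted p = 0.0409), and 1 14 dpg library overlapped these. The Sox10 call ended when only the 2 groups were fitted (adjusted p = 0.0622), and without C57 14 dpg replicate 1 or 3 or C57 28 dpg replicate 2 or 3 (adjusted p = 0.104 to 0.143). S100b read 42.4, 16.1 and 42.0 CPM at 28 dpg and Gldn 21.1, 24.3 and 26.7 CPM, and neither passed (1.22 ± 0.44 and 0.28 ± 0.25, edgeR adjusted p = 0.0611 and 0.46).

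At 28 dpg some members still stood below intact ear. Against C57 ear, 3 members were lower at 28 dpg, where 18% of all genes fell: Ncmap by 1.32 ± 0.19 on the log2 scale, S100b by 1.08 ± 0.36 and Mbp by 0.49 ± 0.17 (edgeR adjusted p = 2.72e-05, 0.0225 and 0.0269). Ncmap reached 40.3% of its ear mean, S100b 46.9% and Mbp 71.5%. Pmp22 at 83.9% and Prx at 83.0% did not pass the test against ear (edgeR adjusted p = 0.279 and 0.25). Sox10 at 154%, Cdh19 at 134% and Gldn at 126% of ear did not pass it either (edgeR adjusted p = 0.0656, 0.0735 and 0.254). These calls depended on the fit: with only the 2 groups, Ncmap fell and Sox10 (0.61 ± 0.18), Cdh19 (0.41 ± 0.14) and Gldn (0.33 ± 0.11) rose (edgeR adjusted p = 0.000147, 0.023, 0.0361 and 0.0337). Without C57 28 dpg replicate 1, Sox10 and Cdh19 rose as well (edgeR adjusted p = 0.0355 and 0.0383), and without replicate 2 Prx fell (0.0302). The Mbp call ended in a fit of the 2 groups alone (adjusted p = 0.229), without C57 ear replicate 3 (0.088), and without C57 28 dpg replicate 1 or 3 (0.148 and 0.0836). The S100b call ended in the fit of the 2 groups alone (adjusted p = 0.0763), without C57 ear replicate 1 or 3 (0.0524 and 0.0698) and without C57 28 dpg replicate 2 (0.0959).

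**Figure D2:**
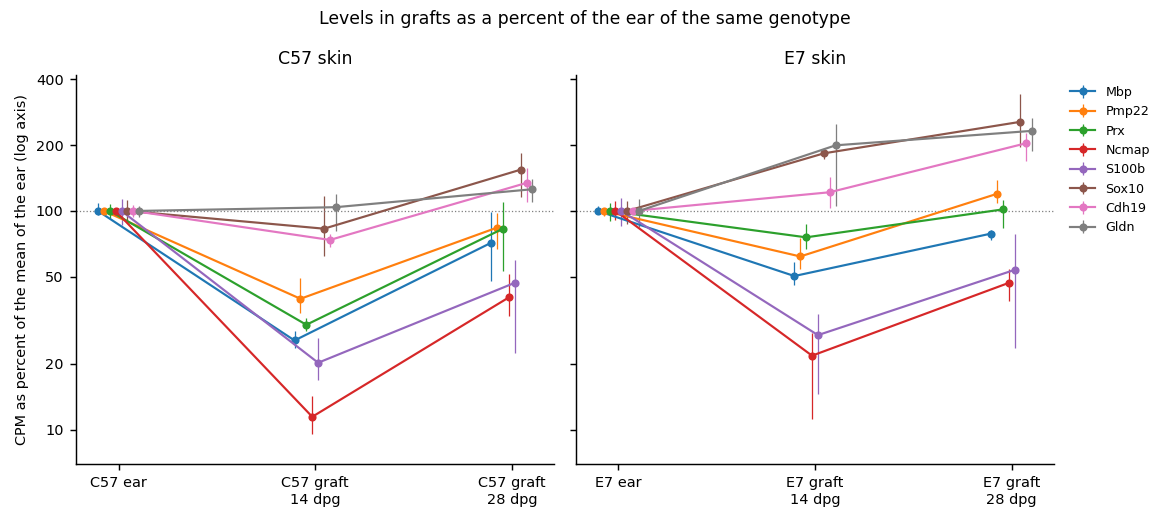
Mean level of each member in C57 and E7 skin at 14 and 28 dpg, as a percent of the mean in ear of the same genotype, on a log axis; vertical lines span the 3 libraries. In C57 skin Ncmap drops to 11.5% at 14 dpg and stands at 40.3% at 28 dpg, while Sox10, Cdh19 and Gldn end above 100%.

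In E7 grafts at 14 dpg, measured against E7 ear, 4 members fell (21.3% of genes fell) and 2 rose (21.9% rose). Ncmap went from 7.79, 6.44 and 6.91 CPM in E7 ear to 0.793, 1.86 and 1.95 CPM (log2 fold change -2.13 ± 0.25, n = 3 against 3, edgeR adjusted p = 1.74e-06). S100b fell by 1.84 ± 0.45, Mbp by 0.99 ± 0.17 and Pmp22 by 0.69 ± 0.19 (edgeR adjusted p = 0.00307, 0.000168 and 0.0062). Sox10 rose from 5.39, 4.97 and 4.26 CPM to 8.41, 9.43 and 8.96 CPM (0.88 ± 0.31, edgeR adjusted p = 0.0268). Gldn rose from 4.71, 6.34 and 5.78 CPM to 14.0, 5.92 and 13.7 CPM (0.98 ± 0.25, edgeR adjusted p = 0.00408), with graft replicate 2 inside the ear range. The Sox10 call ended without E7 ear replicate 2 or 3 or E7 14 dpg replicate 2 or 3 (adjusted p = 0.056 to 0.0863). Prx and Cdh19 did not pass (-0.41 ± 0.21 and 0.29 ± 0.23).

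From 14 to 28 dpg 4 members rose in E7 grafts, where 7.68% of genes rose. Pmp22 went from 56.5, 54.5 and 75.2 CPM to 109, 112 and 139 CPM (log2 fold change 0.96 ± 0.21, edgeR adjusted p = 0.00834, n = 3 against 3). Ncmap reached 2.73, 3.81 and 3.37 CPM (1.06 ± 0.31, edgeR adjusted p = 0.028), Cdh19 5.96, 7.61 and 8.00 CPM (0.75 ± 0.24, 0.0447) and Mbp 85.1, 77.1 and 85.2 CPM (0.66 ± 0.20, 0.0329). Without any 1 of E7 14 dpg replicates 1 and 2 or the 3 E7 28 dpg libraries, Mbp and Cdh19 missed the threshold (adjusted p = 0.0623 to 0.118 and 0.0544 to 0.147). Ncmap missed it without E7 14 dpg replicate 1 or 2 or E7 28 dpg replicate 2 or 3 (0.0514 to 0.104) and in a fit of the 2 groups alone (0.0688). Prx, S100b, Sox10 and Gldn did not pass. At 28 dpg E7 grafts stood above E7 ear in Sox10 (1.35 ± 0.30), Gldn (1.21 ± 0.25) and Cdh19 (1.02 ± 0.22; edgeR adjusted p = 0.00113, 0.000594 and 0.000748), where 23.8% of genes rose. Of the members Ncmap was the one past the threshold in the other direction (-1.10 ± 0.22, edgeR adjusted p = 0.00051), where 24.2% of genes fell. Every E7 28 dpg library also lay below every E7 ear library in Mbp (-0.34 ± 0.17, edgeR adjusted p = 0.105) and S100b (-0.90 ± 0.42, 0.0848). Mbp passed when only the 2 groups were fitted (0.00308), and S100b without E7 28 dpg replicate 1 (0.0405).

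In intact ear all 8 members were lower in E7 than in C57 skin, in a comparison in which 32.7% of 15720 genes fell. S100b went from 72.0, 61.5 and 80.8 CPM in C57 ear to 15.4, 17.5 and 13.1 CPM in E7 ear, and its log2 fold change of -2.22 ± 0.13 was the largest of the 8 (n = 3 against 3, edgeR adjusted p = 2.89e-07). Pmp22 fell from about 300.4 ± 7.82 CPM (SD, n = 3) to 103, 103 and 94.5 CPM (-1.58 ± 0.06, edgeR adjusted p = 7.53e-09). The smallest fall was that of Mbp, to 101, 103 and 110 CPM (-0.97 ± 0.07, edgeR adjusted p = 4.6e-07). Prx, Ncmap, Gldn, Sox10 and Cdh19 fell by 1.53, 1.60, 1.77, 1.81 and 1.92 on the log2 scale. No C57 ear library overlapped any E7 ear library in any of these genes. The share of all genes without such overlap was not counted, and of the 15720 genes tested 5129 rose and 5138 fell. The median over the 8 was -1.68, beside a median of 0.00 over all genes tested.

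At 14 dpg 4 of the 8 members were lower in E7 than in C57 grafts, and Mbp and Prx were at like levels in both. In C57 grafts Mbp stood at 48.4, 51.0 and 58.1 CPM, and the E7 libraries gave 47.9, 48.9 and 61.5 CPM (log2 fold change 0.02 ± 0.20, n = 3 against 3, edgeR adjusted p = 0.944). For Prx the E7 libraries gave 20.8, 16.0 and 17.4 CPM against 20.6, 22.2 and 19.5 CPM (-0.19 ± 0.23, edgeR adjusted p = 0.553). Both pairs of groups overlapped. The 4 members that fell, where 14.4% of genes fell, were Cdh19 at 3.65, 4.17 and 5.06 CPM (-1.18 ± 0.24, edgeR adjusted p = 0.00211), Pmp22 (-0.93 ± 0.21, 0.00535), S100b at 2.22, 5.16 and 5.06 CPM (-1.75 ± 0.51, 0.0188) and Gldn (-0.83 ± 0.26, 0.0264). The S100b call ended without C57 14 dpg replicate 3 (adjusted p = 0.0755) or E7 14 dpg replicate 1 (0.0724). The Gldn call ended without C57 14 dpg replicate 1 or 2 or E7 14 dpg replicate 2 (0.069 to 0.0994), and in a fit of the 2 groups alone (0.105). Ncmap and Sox10 did not pass (-0.61 ± 0.32 and -0.64 ± 0.32), although every E7 library lay below every C57 library in both.

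At 28 dpg all 8 members were lower in E7 than in C57 grafts, where 14.7% of genes fell. S100b was at 12.0, 9.02 and 3.62 CPM against 42.4, 16.1 and 42.0 CPM (log2 fold change -2.01 ± 0.47, n = 3 against 3, edgeR adjusted p = 0.00431). Ncmap fell by 1.36 ± 0.26, Cdh19 by 1.30 ± 0.22, Prx by 1.21 ± 0.22 and Pmp22 by 1.05 ± 0.21 on the log2 scale (edgeR adjusted p = 0.0011, 0.000391, 0.000728 and 0.00156). Sox10, Gldn and Mbp fell by 1.06 ± 0.30, 0.86 ± 0.26 and 0.81 ± 0.19 (edgeR adjusted p = 0.0141, 0.0166 and 0.00467). The Sox10 call ended without C57 28 dpg replicate 2 or E7 28 dpg replicate 2 or 3 (adjusted p = 0.0533 to 0.0632), and the Gldn call without C57 28 dpg replicate 3 or E7 28 dpg replicate 1 (0.0583 and 0.0724). Fitted with only the 2 groups, Mbp missed the threshold (0.0622). The median over the 8 was -1.14, beside 0.01 over all genes tested.

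**Figure D3:**
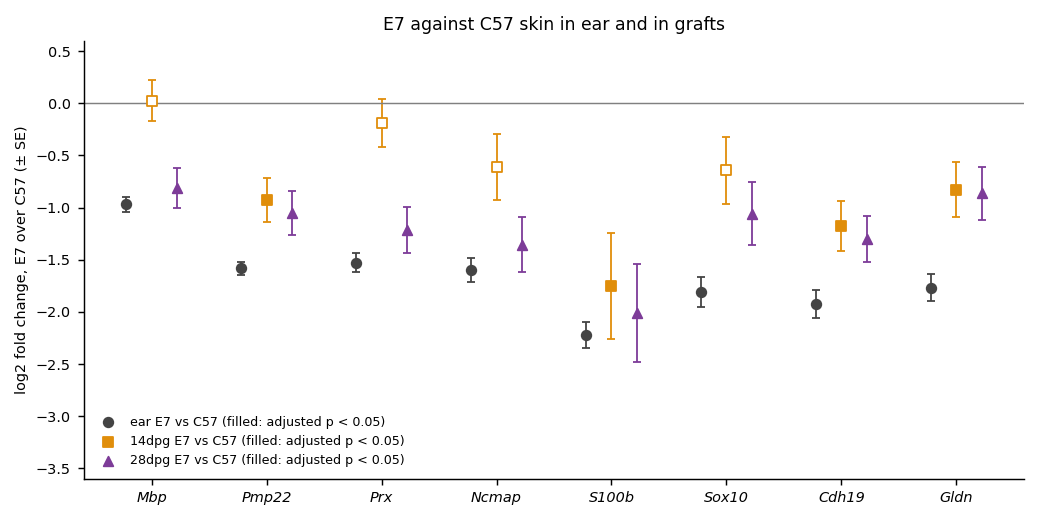
Log2 fold change of E7 over C57 skin for each member in ear, in 14 dpg grafts and in 28 dpg grafts, with standard errors (3 against 3 libraries each); filled symbols passed the test. Mbp and Prx lie near 0 at 14 dpg and below it in ear and at 28 dpg.

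The change in the E7 effect was tested directly. Between ear and 14 dpg grafts the E7 effect on Prx was weaker by 1.32 ± 0.29 on the log2 scale and that on Mbp by 0.98 ± 0.25 (differences of log2 fold changes, edgeR adjusted p = 0.00445 and 0.0125), in a test in which 4.02% of genes shifted upward. For the other 6 members this difference ran from 0.46 to 1.16 and did not pass (adjusted p = 0.068 to 0.658). Fitted with only those 4 groups, 6 of the 8 passed, and Gldn and S100b did not. The ear against graft difference cannot be told apart from the flow cell. Gene lists of other tissues shifted too. The median difference was 1.58 over 12 muscle genes and 1.16 over 9 fat cell genes, with 0 past the threshold in each. Of 12 endothelial genes 5 rose (median 0.80). The median was 0.95 over the 8 members, -0.045 over all genes tested and -1.04 over 10 macrophage genes. The part of other tissues in this shift was not tested. Between 14 and 28 dpg no member's E7 effect changed past the threshold, where 27 genes (0.167%) did. Before adjustment 2 members had p below 0.05: Prx (-1.02 ± 0.32, edgeR adjusted p = 0.265) and Mbp (-0.83 ± 0.28, 0.309). DESeq2 called 0 of them too. Between ear and 28 dpg grafts no member's E7 effect differed past the threshold, where 7.43% of genes did, and 2 members had an unadjusted p below 0.05.

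Grafts labelled CD1dKOxE7 differed little from E7 grafts in these genes. Of the 3 calls at 14 dpg, 0 or 1 held when any 1 library was left out. At 14 dpg, against E7 grafts, Ncmap rose and Prx and Gldn fell, each close to the threshold, where 15.1% of genes rose and 14.8% fell. Ncmap was at 2.41, 3.20 and 3.03 CPM in grafts labelled CD1dKOxE7, while E7 libraries gave 0.793, 1.86 and 1.95 CPM (log2 fold change 0.84 ± 0.31, n = 3 against 3, edgeR adjusted p = 0.0484). Prx was at 10.2, 14.1 and 9.96 CPM (-0.65 ± 0.24, edgeR adjusted p = 0.0483), and Gldn at 7.03, 6.67 and 5.92 CPM (-0.76 ± 0.28, 0.0492). With no filter on low counts none of the 3 passed (adjusted p = 0.054 to 0.0756), and leaving out any 1 of the 6 libraries left 0 or 1 of them (adjusted p of the lost calls 0.0585 to 0.193). At 28 dpg 0 of the 8 members passed with edgeR or DESeq2, and 1, Gldn, had an unadjusted p below 0.05 (-0.85 ± 0.28, edgeR adjusted p = 0.207); 34 genes in all (0.21%) passed with edgeR. Without CD1dKOxE7 28 dpg replicate 3, 0 members passed, and 142 genes rose and 162 fell. In that fit Sox10 stood at -1.01 (adjusted p = 0.0945), against -0.53 ± 0.32 with it (0.51).

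Within CD1dKOxE7 grafts 3 members rose from 14 to 28 dpg, where 10.8% of genes rose. Pmp22 went from 44.8, 73.0 and 45.9 CPM to 81.1, 95.9 and 106 CPM (log2 fold change 0.79 ± 0.21, n = 3 against 3, edgeR adjusted p = 0.0154). Prx reached 17.6, 20.2 and 24.7 CPM (0.87 ± 0.23, edgeR adjusted p = 0.0153), and Cdh19 5.66, 5.49 and 10.0 CPM (0.73 ± 0.24, 0.0362). Without 28 dpg replicate 3, Cdh19 did not pass (0.41, adjusted p = 0.171). Without 14 dpg replicate 1 or 3 none of the 3 passed (adjusted p = 0.0587 to 0.138), and in a fit of the 2 groups alone Pmp22 and Cdh19 did not (0.0639 and 0.166). A change of the CD1d effect between the days was called for 0 members with edgeR (0 also at an unadjusted p below 0.05), where 12.8% of genes were called. Without CD1dKOxE7 28 dpg replicate 3 1 member passed, Sox10 (-1.22 ± 0.40, edgeR adjusted p = 0.0355).

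Set against Sox10 in the same library, the sheath genes stood lower in grafts than in ear. Ncmap was 1.14 to 1.42 times Sox10 in C57 ear, 0.102 to 0.253 times at 14 dpg and 0.244 to 0.393 times at 28 dpg (ratios of CPM). Prx ran at 3.84 to 4.20, 1.11 to 1.83 and 1.84 to 2.39 times Sox10, and Mbp at 11.5 to 12.9, 2.55 to 5.47 and 4.95 to 6.46 times. None of these graft ranges reached the ear range. Cdh19 was 0.740 to 0.876 times Sox10 in C57 ear, and its graft ranges of 0.460 to 0.933 and 0.578 to 0.751 overlapped that of ear. In E7 ear Mbp was 18.8 to 25.8 times Sox10, above the C57 ear range, while in E7 grafts it was 5.19 to 6.86 and 5.07 to 8.04 times. In CD1dKOxE7 28 dpg grafts it was 11.5 and 11.3 times in replicates 1 and 2 and 6.03 times in replicate 3, the library with the most Sox10. These ratios describe the libraries and were not tested. They share Sox10 as divisor, and Sox10 is made by melanocytes too.

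**Figure D4:**
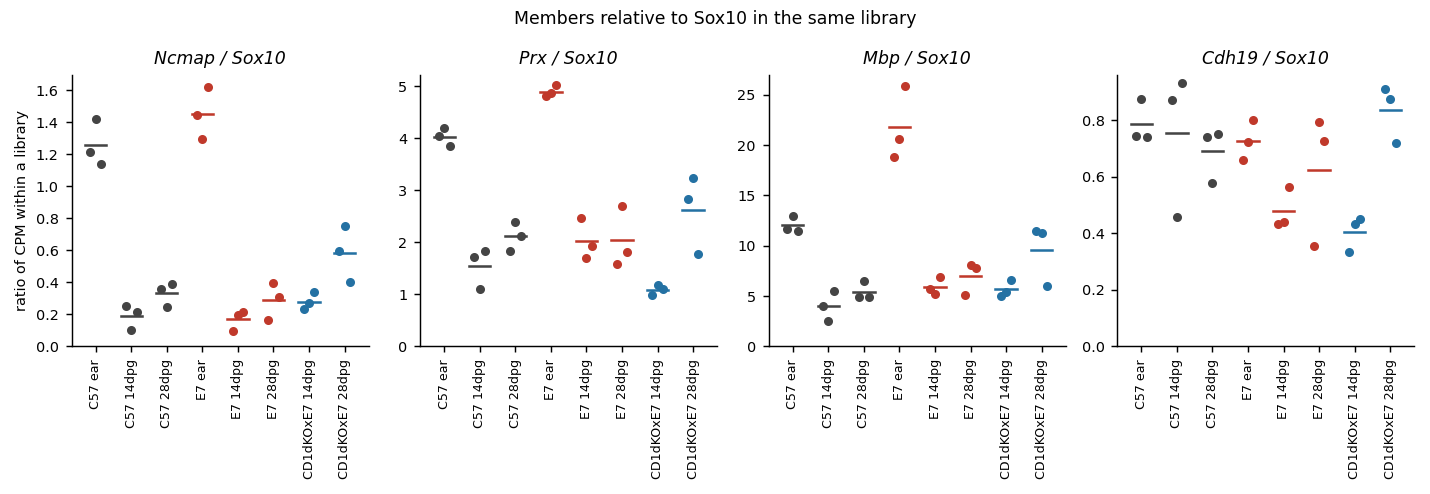
Ratio of the CPM of Ncmap, Prx, Mbp and Cdh19 to that of Sox10 in each library, for the 8 groups; points are libraries and lines are means. Within C57 skin and within E7 skin, Ncmap, Prx and Mbp stand higher in ear than in grafts, while Cdh19 in C57 ear overlaps the C57 grafts.

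Across the 8 groups the members fell into different orders. C57 ear had the highest mean of Mbp, Pmp22, Prx, Ncmap and S100b, while C57 28 dpg grafts had the highest of Sox10, Cdh19 and Gldn. For Mbp and Prx the ranges of C57 ear and C57 28 dpg grafts overlapped. The lowest group was C57 14 dpg for Mbp, E7 14 dpg for Ncmap, CD1dKOxE7 14 dpg for Pmp22, Prx and S100b, and E7 ear for Sox10, Cdh19 and Gldn. The ranges of neighbours at the low end overlapped for Mbp, Pmp22, S100b, Cdh19 and Gldn. Per length Ncmap was the fifth of the 8 in C57 ear and the last in C57 14 dpg grafts, at 1.10 CPM per kb.

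Other myelin genes, from a list of 12, moved with the members in C57 grafts and, between E7 and C57 skin, in ear and at 28 dpg. In C57 grafts at 14 dpg 8 of the 12 fell against ear and 0 rose, where 22% of all genes fell. The median log2 fold change was -1.35 (0.06 over all genes tested). Drp2, the partner of periaxin, and Cldn19, a tight junction protein of myelin, fell by 2.44 ± 0.21 and 3.19 ± 0.38 on the log2 scale (n = 3 against 3, edgeR adjusted p = 2.5e-08 and 8.48e-07). From 14 to 28 dpg 9 of the 12 rose in C57 grafts and 0 fell, where 8.4% of all genes rose. Among the 9 were Drp2 (1.55 ± 0.24, edgeR adjusted p = 0.000501) and Cldn19 (2.56 ± 0.45, 0.00116). In E7 grafts 2 of the 12 rose between the days, among them Drp2 (0.94 ± 0.26, edgeR adjusted p = 0.0232), where 7.68% of genes rose. Between E7 and C57 skin 10 of 12 fell and 1 rose in ear, 1 fell (Drp2) at 14 dpg, and 10 fell and 2 rose at 28 dpg. Of all genes tested 32.7%, 14.4% and 14.7% fell in these comparisons. At 14 dpg the median over the 12 was -0.67, beside -0.035 over all genes tested. The genes of the list that rose were Fa2h, a lipid hydroxylase that other skin cells make as well, in ear and at 28 dpg, and Gjb1, a gap junction protein, at 28 dpg. They are named here after their values were seen.

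Of 12 genes of the node of Ranvier and the region beside it, Kcna1, Kcna2 and Scn8a behaved like the sheath genes in C57 skin. Kcna1 and Kcna2 encode potassium channel subunits found beside the node, and Scn8a the sodium channel of the node. Kcna2 read 51.0, 51.6 and 55.2 CPM in C57 ear, 14.5, 18.7 and 12.9 CPM at 14 dpg and 46.2, 60.2 and 65.2 CPM at 28 dpg. It fell by 1.78 ± 0.27 and then rose by 1.91 ± 0.31 on the log2 scale (edgeR adjusted p = 2.07e-05 and 0.000668). At 14 dpg 3 genes of the list fell and 4 rose against ear, with a median of -0.05 over the 12. Of all 16612 genes tested 3658 fell and 5077 rose. Among those of the list that rose was Sptbn4, a spectrin (2.11 ± 0.35). From 14 to 28 dpg 3 rose and 0 fell, where 8.4% of all genes rose. In E7 against C57 skin 8 fell and 3 rose in ear, 2 fell and 1 rose at 14 dpg, and 4 fell and 0 rose at 28 dpg. Of all genes tested 32.7%, 14.4% and 14.7% fell in these comparisons. Kcna2 was among those that fell each time (-1.65, -1.06 and -1.66).

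Genes of the Schwann cell lineage and of cells without myelin, numbered 12 in the list and 11 among the genes tested in grafts. In C57 14 dpg grafts 2 rose against ear, Ncam1, an adhesion molecule of cells without myelin (1.08 ± 0.19), and Gfra3, the artemin receptor (1.41 ± 0.39), and 2 fell, Adgrg6 (-0.47 ± 0.12) and Lgi4 (-0.62), both needed for myelin to form. In this comparison 5077 of all 16612 genes tested rose and 3658 fell. The median over the list was 0.11, beside 0.06 over all genes tested. From 14 to 28 dpg Lgi4 (1.06 ± 0.21) and Adgrg6 (0.74 ± 0.13) rose and Ncam1 fell by 0.67 ± 0.19, where 1360 of 16189 genes rose and 2301 fell. In ear 9 of the 10 tested fell in E7 skin and Erbb3, a neuregulin receptor that epidermis also makes, rose (0.88 ± 0.06). At 14 dpg 4 fell and 1 rose, and at 28 dpg 6 fell and 0 rose. Of all genes tested 32.7% fell in ear, 14.4% at 14 dpg and 14.7% at 28 dpg.

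Of 9 genes known for the repair state, 6 rose in C57 grafts at 14 dpg and 6 at 28 dpg against ear, with 0 falling at either day. Of all 16612 genes tested 5077 rose at 14 dpg and 3532 at 28 dpg. In E7 grafts against E7 ear 4 of the 9 rose and 1 fell at 14 dpg, and 2 rose and 2 fell at 28 dpg. Artn, a growth factor for sensory neurons, went from 0.409, 0.375 and 0.541 CPM in ear to 4.55, 1.46 and 3.82 CPM at 14 dpg (2.86 ± 0.33, edgeR adjusted p = 7.46e-07). Gap43, a growth-associated protein, went from 4.83, 3.45 and 5.01 CPM to 14.3, 11.7 and 8.23 CPM (1.36 ± 0.28, edgeR adjusted p = 0.000484). Shh was at 0 to 0.203 CPM in C57 ear and at 4.93, 14.3 and 2.39 CPM at 14 dpg. Jun, Lif and Runx2 rose as well, and none of these genes is made by Schwann cells alone. In ear Jun rose in E7 skin (1.49 ± 0.07) and Gap43 fell by 2.57 ± 0.29. Of the genes that control myelination, Egr2 went from 46.5, 54.1 and 43.5 CPM in C57 ear to 84.0, 76.9 and 92.1 CPM in E7 ear (0.81 ± 0.09, edgeR adjusted p = 2.19e-05), where all 8 members fell. Egr2 is active in hair follicles too. In C57 grafts Nrg1, the neuregulin that signals to Schwann cells, rose by 3.21 ± 0.48 at 14 dpg against ear and fell by 1.87 ± 0.46 from 14 to 28 dpg.

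Axons carry little RNA of their own, since the neurons' cell bodies lie in ganglia outside the skin. Of 13 axon and neuron genes 4 were tested in these comparisons. In E7 against C57 ear 2 of the 4 rose and 2 fell (median 0.15), where 5129 of 15720 genes rose and 5138 fell. The summed level of the 13 was 33.4 to 88.1 CPM in E7 ear and 21.8 to 30.7 CPM in C57 ear. Stmn2, a growth protein of axons, fell by 1.73 ± 0.23 in E7 against C57 ear and was at 11.8, 9.61 and 16.6 CPM in C57 ear and 9.36, 7.74 and 7.52 CPM at 14 dpg. Tubb3, a tubulin of neurons and of dividing cells, rose by 3.79 ± 0.38 in C57 14 dpg grafts against ear and fell by 2.24 ± 0.38 from 14 to 28 dpg. Of the relatives of Pmp22, a list of 5, 0 rose and 2 fell in C57 14 dpg grafts against ear (Emp1 and Perp), and 0 changed past the threshold from 14 to 28 dpg.

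**Figure D5:**
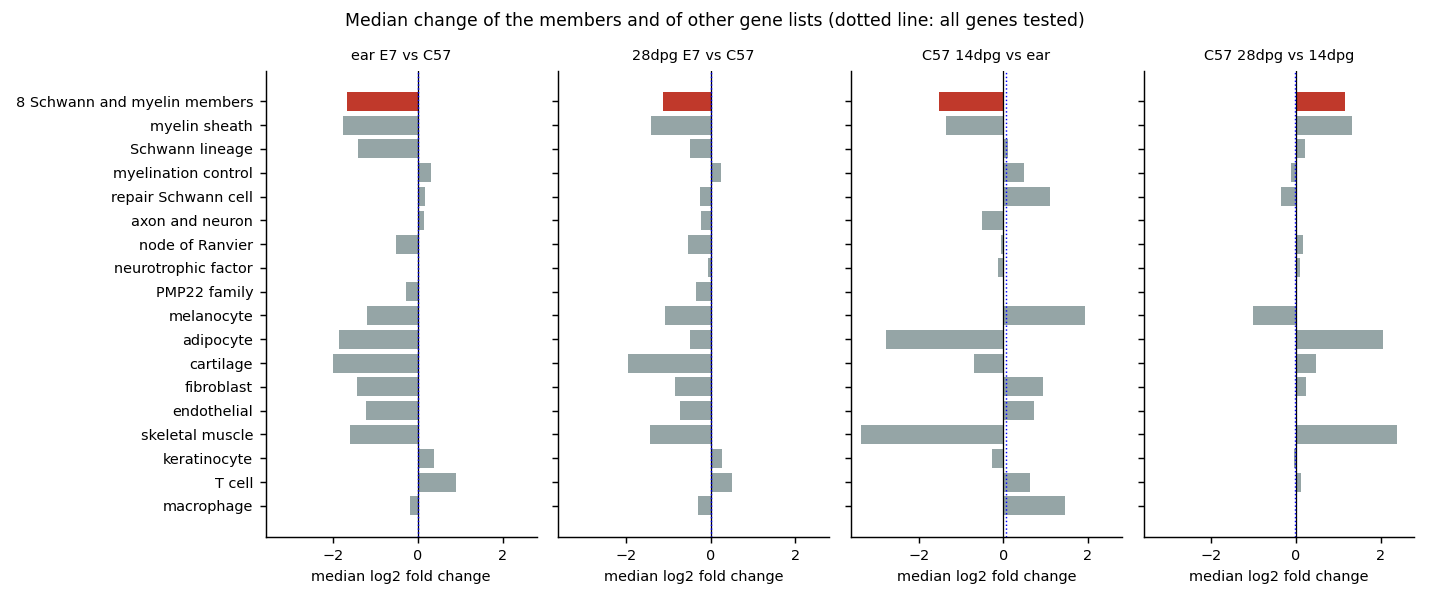
Median log2 fold change of the 8 members and of each other gene list in 4 comparisons; the dotted line is the median of all genes tested. Members and myelin sheath genes stand together in all 4, and muscle, fat and cartilage genes lie on the same side of the zero line as they do in all 4. Fibroblast and endothelial genes lie on that side in E7 against C57 skin, in ear and at 28 dpg.

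Markers of other tissues moved with the members in some comparisons, and their part in these results was not tested. All 12 skeletal muscle genes fell in C57 14 dpg grafts against ear (median -3.36), and 11 of 12 rose from 14 to 28 dpg (median 2.38). Their summed level was 5854 to 10450 CPM in C57 ear, 419 to 1474 CPM at 14 dpg and 2611 to 5722 CPM at 28 dpg. In E7 grafts, where 4 members rose between the days, 0 of the 12 muscle genes passed the test with edgeR, but their median was 1.06 and their summed level went from 180 to 1175 CPM at 14 dpg to 1416 to 1701 CPM at 28 dpg with no overlap. Of 9 fat cell genes 6 fell in C57 14 dpg grafts against ear, and between the days 2 rose in C57 grafts and 3 in E7 grafts (median 2.40). In E7 against C57 ear, all 12 muscle, 12 fibroblast and 12 endothelial genes, 9 fat cell genes and 13 tested cartilage genes fell, and 7 of 10 keratinocyte genes rose. At 14 dpg 9 of 12 fibroblast genes (median -0.87), 9 of 10 macrophage genes (median -1.09) and 2 of 12 endothelial genes fell in E7 against C57 grafts, and 0 of them rose. At 28 dpg 12 of 12 endothelial and 7 of 12 fibroblast genes fell in E7 skin. Of the muscle genes 1 of 12 fell, with a median of -1.44. Their summed level was 1416 to 1701 CPM in E7 grafts and 2611 to 5722 CPM in C57 grafts, with no overlap. Of 13 tested cartilage genes 1 fell (median -1.95), and of 9 fat cell genes 0 did (median -0.495). In these lists 0 genes rose. In C57 14 dpg grafts against ear 9 of 12 fibroblast genes rose and 1 fell, and 10 of 12 endothelial genes rose, where the sheath genes fell.

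S100b is made by cartilage too, and their levels were set side by side. In C57 28 dpg grafts the summed level of 14 cartilage genes was 1743, 328 and 1054 CPM in replicates 1 to 3, where S100b read 42.4, 16.1 and 42.0 CPM. In E7 28 dpg grafts the sum was 466, 372 and 25.6 CPM beside S100b at 12.0, 9.02 and 3.62 CPM. In both of these groups the library lowest in cartilage was lowest in S100b, while replicate 2 of C57 28 dpg was the highest in Mbp and Prx. Between groups, like cartilage sums stood beside unlike S100b levels. C57 ear had sums of 997, 930 and 1060 CPM and S100b at 72.0, 61.5 and 80.8 CPM. C57 14 dpg grafts had sums of 582, 371 and 1132 CPM and S100b at 12.5, 12.1 and 18.7 CPM. The part of cartilage in the S100b level was not tested. Omd, an extracellular matrix protein of bone, was the gene most like S100b over the 24 libraries (Pearson r = 0.98).

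Sox10 was set beside melanocyte genes in the same way. The summed level of 10 melanocyte genes in C57 14 dpg grafts was 187, 362 and 106 CPM beside Sox10 at 12.0, 20.0 and 10.6 CPM. In CD1dKOxE7 28 dpg grafts it was 63.8, 56.95 and 126 CPM beside Sox10 at 6.21, 6.27 and 13.9 CPM. In E7 grafts the library highest in Sox10 was not the highest in melanocyte genes. At 14 dpg the sum there was 198, 91.8 and 101 CPM beside Sox10 at 8.41, 9.43 and 8.96 CPM. At 28 dpg it was 52.65, 83.9 and 66.7 CPM beside Sox10 at 16.8, 9.59 and 11.0 CPM. The part of melanocytes in the Sox10 level was not tested. In E7 against C57 ear, where Sox10 fell, 5 of 7 tested melanocyte genes fell and 0 rose (median -1.22), and their summed level was 36.3 to 48.3 CPM against 85.5 to 93.5 CPM. Of the melanocyte genes 8 of 10 rose in C57 14 dpg grafts against ear and 10 of 10 in E7 grafts, and 1 of 9 fell from 14 to 28 dpg in C57 grafts. T cell genes were the other list that stood out in grafts labelled CD1dKOxE7, where 10 of 10 rose against E7 at 14 dpg (summed level 393 to 468 CPM against 73.2 to 84.8 CPM). Of 10 macrophage genes 7 rose in C57 14 dpg grafts against ear, and 8 rose at 14 dpg in CD1dKOxE7 against E7 grafts. Of 10 neurotrophic factors, 8 of them tested, 2 rose and 1 fell in C57 14 dpg grafts against ear.

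The genes whose pattern lay closest to the mean of the 8 members, as the Pearson correlation of log2 CPM, were found over the 24 libraries and again over the 18 grafts. Over 24 libraries they were led by Fxyd1, which encodes phospholemman (r = 0.97), and Abhd14b (0.968). Over the 18 grafts Drp2 came first (0.972), ahead of Entpd2, an ectonucleotidase of Schwann cells without myelin (0.971), and Cavin1, a coat protein of caveolae (0.965), and Kcna2 was the tenth (0.959). Singly, Prx had Drp2 among its 3 closest genes (0.958) and Cdh19 had Cavin1 first (0.977). The libraries share group, flow cell and tissue makeup, so these values describe likeness alone. Among the members over the 18 grafts the closest pair was Pmp22 and Cdh19 (r = 0.949) and the most distant Ncmap and Gldn (0.283).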

How the data were processed

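RNA sequencing counts per gene were deposited for 24 libraries of whole mouse skin, made per the labels' protocols from total RNA of snap-frozen tissue with a TruSeq RNA v2 kit. The submitters' processing notes name bcl2fastq 1.8.4, FastQC, Trimmomatic and the mm10 build. The aligner, counter, annotation and strand setting are not given in the sources used here. The counts deposited by the authors were whole numbers for 27180 rows, and 25275 of the rows matched RefSeq GRCm38.p6.

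Differences between groups were fitted on these counts by edgeR 4.0.16 under R 4.3.3 (quasi-likelihood F test, TMM scaling, filterByExpr by group with a minimum count of 10 and a minimum total of 15, robust), with Benjamini-Hochberg adjustment over all genes tested and a threshold of 0.05. Ear (6 libraries, 15720 genes), graft (18, 16189) and ear with graft (24, 16612) comparisons were fitted separately. Levels are CPM with the TMM factors of the fit of all 24 libraries, and levels per length use the exon union of GENCODE M21. A standard error is the log2 fold change over the square root of F. Log2 CPM for likeness used a prior count of 2. The script's fit was tested on simulated data. Alternatives were RLE and upper quartile scaling, no filter, 1 CPM in 3 libraries, DESeq2 1.42.0, other sets of groups in the fit, a replicate block and each library left out.

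The members and the other gene lists were chosen with earlier results of these data known. All members are named, and of each other list up to 3 genes per comparison with the smallest adjusted p. Others are named where a count was small and were chosen after their values were seen, as were Lgi4 and Adgrg6 and the repair genes given by level. A test of 3 against 3 libraries for a single value cannot go below 0.1 by exact permutation, so calls come from the fit across all genes. Plots were drawn with matplotlib 3.10.9. Results on some genes of the lists are not reported here.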

Additional observations from a re-analysis of the deposited data

Results flagged for a closer look

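The effect of E7 on 2 members differed between intact ear and grafts at 14 dpg, by a test of the difference itself over 24 libraries. For Mbp the E7 over C57 log2 fold change was higher in 14 dpg grafts than in ear by 0.979, and for Prx by 1.321 (edgeR adjusted p = 0.0125 and 0.00445). In ear every E7 library lay below every C57 library in both genes, and at 14 dpg the groups overlapped. Ear and grafts were run on different flow cells, which cannot be told apart from the tissue. In the same test muscle, fat cell and endothelial genes had medians of 1.58, 1.16 and 0.80, beside 0.95 over the 8 members. Macrophage genes went the other way (median -1.04).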

How the results depend on the processing

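Of 54 comparisons of a member past the threshold, 36 stayed past it under every alternative run, 18 lost it under at least 1, and 0 reversed. All 8 members stayed past it in ear under each alternative run. The number of members past the threshold moved for these comparisons. For CD1dKOxE7 against E7 at 14 dpg (3 members) it was 2 with RLE, 1 with upper quartile scaling, 0 with no filter, 2 with DESeq2, 1 with only the groups compared, and 0 to 1 with a library left out. With only the groups compared it was 1 for CD1dKOxE7 28 against 14 dpg (3), 4 for C57 28 dpg against ear (3 rose and 1 fell, in place of 3 that fell), 6 for E7 28 dpg against ear (4 rose and 2 fell, in place of 3 and 1), 6 for the E7 effect at 14 dpg minus ear (2) and 1 for that at 28 dpg minus ear (0). The E7 effect at 14 dpg minus ear had 4 members with upper quartile scaling and 4 with DESeq2. With a library left out the counts ran from 0 to 3 for CD1dKOxE7 28 against 14 dpg, 1 to 4 for C57 28 dpg against ear (2 rose and 2 fell without C57 28 dpg replicate 1), 1 to 4 for E7 28 against 14 dpg, 5 to 6 for E7 14 dpg against ear, 4 to 5 for E7 28 dpg against ear and 0 to 1 for the CD1d effect at 28 minus 14 dpg. The cause of these moves was not tested.

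Signs turned only for values that had not passed the test. Cdh19 in CD1dKOxE7 against E7 at 14 dpg was 0.003 with no filter, and -0.228 to 0.101 with a library left out. Gldn in C57 14 dpg against ear was -0.021 with upper quartile scaling, -0.035 with no filter, -0.003 with only the groups compared, and -0.127 to 0.134 with a library left out. With a library left out the range was -0.105 to 0.099 for Mbp in E7 against C57 at 14 dpg, -0.448 to 0.312 for S100b and -0.37 to 0.096 for Cdh19 in CD1dKOxE7 against E7 at 28 dpg, -0.072 to 0.44 for Gldn in E7 28 against 14 dpg, -0.039 to 0.332 for Gldn in CD1dKOxE7 28 against 14 dpg, -0.056 to 0.144 for Prx in E7 28 dpg against ear, and -0.082 to 0.454 for Mbp in the E7 effect at 28 dpg minus ear.

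The labels do not say whether grafts of the same replicate number were paired. In no comparison did all 3 same-numbered pairs correlate over 0.1. However, 2 did in CD1dKOxE7 against E7 at 28 dpg (0.129 and 0.226) and in C57 28 against 14 dpg (0.294 and 0.102). With 3 pairs per comparison this check cannot exclude pairing, and the main fits did not use it. With the replicate block 2 members passed in CD1dKOxE7 against E7 at 14 dpg and 5 in C57 28 against 14 dpg, where Gldn (adjusted p = 0.0671) and Sox10 (0.0543) were lost, and no other count of members moved. Upper quartile scaling shifted the median of all genes by -0.12 in ear, and the genes called higher and lower in E7 ear went from 5129 and 5138 to 3993 and 6221. The share of calls that were higher went from 58.4% to 47.9% for E7 against C57 at 28 dpg, from 37.1% to 52.2% for C57 28 against 14 dpg, and from 31.8% to 55.2% for the E7 effect at 14 dpg minus ear, where the median shifted by 0.107. At counts as low as those of Ncmap and S100b in E7 grafts, counting error adds to the spread between libraries.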
